A study of Mus musculus with 6 samples.

Results

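The transcripts of 10 factors that T cells release or display were followed in tumour-infiltrating T cells sorted by how much of the lectin L-Pha they bound. They were the CC chemokines Ccl3, Ccl4, Ccl5 and Ccl9, the C chemokine Xcl1, the tumour necrosis factor (TNF) family ligands Tnf, Ltb and Tnfsf8, the macrophage growth factor Csf1 and the transforming growth factor Tgfb1. The genes were chosen by name, and all 10 were found among the 43629 genes of the count table. With 7 of them a test was possible, while Tnf, Tnfsf8 and Tgfb1 had too few counts and are given as counts. C57BL/6 mice carried subcutaneous tumours of B16-OVA, a melanoma line made to express ovalbumin, which were harvested on day 14 and pooled. The cells are described as CD8 and T cell receptor positive in the series design and as TCRB+CD3 in the sorting protocol. Sorting by L-Pha, a bean lectin that binds branched N-glycans on the cell surface, gave 3 L-Pha low and 3 L-Pha high libraries. Both groups share the strain, the tumour and the harvest day, and no treatment is given for either. The sort separates cells by a surface sugar, so the groups are not defined by a change made to the cells.

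Chemokines are small secreted proteins that bind G protein-coupled receptors and draw leukocytes along a gradient. Activated CD8 T cells are a well-known source of Ccl3, Ccl4, Ccl5 and Xcl1, of which Xcl1 draws cross-presenting dendritic cells through Xcr1. TNF family ligands are made as trimers on the cell surface, where Tnf can be shed by the protease Adam17, lymphotoxin beta (Ltb) anchors lymphotoxin alpha to the membrane, and Tnfsf8 (CD30 ligand) binds Tnfrsf8 on other lymphocytes. Csf1 supports macrophages through Csf1r, Tgfb1 is secreted in a latent form and restrains effector T cells, and Ccl9 is better known as a product of myeloid cells.

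The libraries held 2610729 to 3521117 counts. CD8 T cell transcripts were present in each of them, with Cd8a at 153 to 625 counts and Cd3e at 25 to 109, and Cd4 had 0 to 4 counts, where a count of 0 allows up to 3. Among the T cell identity genes Trac had only 0 to 3 counts. Of the other CD4 and regulatory T cell markers, Foxp3 had 0 to 7 counts, Cd40lg 0 to 4 and Ikzf2 33 to 216. In CPM every L-Pha high library was above every L-Pha low library for Ikzf2, as in 4.23% of all tested genes. RNA of other tumour cells was present as well. The 9 melanoma markers took 0.950% to 1.80% of all counts, most of it from the pigment enzyme gene Dct, and the 16 T cell identity genes took 0.0385% to 0.1%. L-Pha low 3 stood apart, with 375 CPM (TMM-scaled CPM, a count relative to the size of its library) summed over the T cell identity genes against 1017 and 1115 CPM in L-Pha low 1 and 2, and L-Pha high 3 was the lowest of its group at 504 CPM, against 760 and 911 CPM. For the members, fold changes and spreads that rest on the libraries numbered 3 are given with and without 1 or both of them. Correlations are given over all 6 libraries only. Since each library is a bulk sample, fewer cells of a type and less RNA per cell cannot be told apart.

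In L-Pha high against L-Pha low cells, the point values were lower for Ccl5, Ltb and Xcl1, higher for Csf1 and Ccl9 and close to equal for Ccl3 and Ccl4, and no tested member passed. By edgeR 0 of 7 passed the threshold of 0.05 after adjustment over all genes, where 0.00894% of the 11183 genes tested passed, and 0 of 7 had an unadjusted p under 0.05, where 3.78% of all genes did. DESeq2 called 0 of the 7 (0.268% of all genes) and limma-voom 0 of the 7 (0% of all genes). Log2 fold changes, as L-Pha high minus L-Pha low, ran from -0.67 for Ltb to 0.42 for Csf1, and 4 were above 0 and 3 below. Their median was 0.07, against -0.01 over all genes tested. In 0 of the 7 did the groups separate without overlap, which 8.41% of all tested genes did. All adjusted p-values of the members were 1.00, and the intervals below show which sizes of difference the 6 libraries leave possible. Across the members the 95% intervals of the fold reached from 0.342-fold to 2.59-fold, as L-Pha high over L-Pha low.

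**Figure D1:**
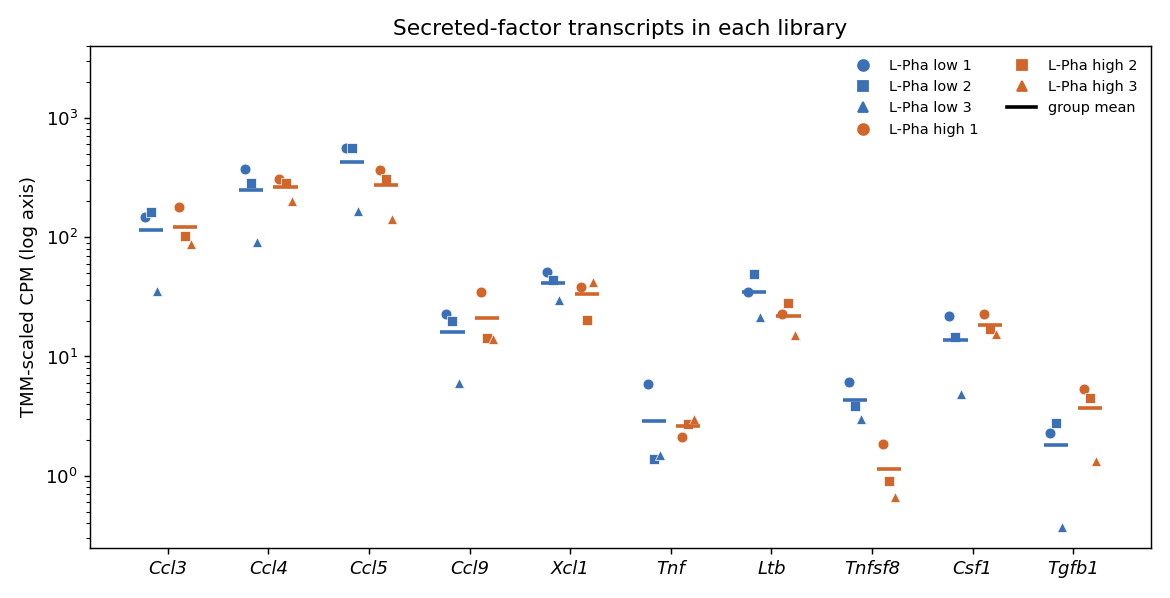
TMM-scaled CPM of the 10 genes (log axis) in each of the 3 L-Pha low (blue) and 3 L-Pha high (orange) libraries, with circles, squares and triangles for the libraries numbered 1, 2 and 3 and bars for group means. The triangle of L-Pha low 3 is the lowest of its group in 9 of the 10 genes, and the groups are apart only in Tnfsf8.

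Ccl3, which encodes MIP-1 alpha (ENSMUSG00000000982, GRCm38 chromosome 11, 83647844 to 83649355), stood at 148, 163 and 35.0 CPM in L-Pha low 1, 2 and 3, against 178, 101 and 87.6 CPM in L-Pha high 1, 2 and 3. The groups overlapped, and the spread came mainly from L-Pha low 3, which lay far below the other 5 libraries. The difference was 0.09 on the log2 scale (SE 0.437), or 1.06-fold, with an interval of 0.554-fold to 2.03-fold. Its neighbour Ccl4, which encodes MIP-1 beta (ENSMUSG00000018930, chromosome 11, 83662584 to 83664683), had 372, 285 and 91.0 CPM in L-Pha low against 306, 282 and 200 CPM in L-Pha high. Here too the groups overlapped, and the 3 L-Pha high libraries lay closer together than the 3 L-Pha low libraries. For Ccl4 the log2 fold change was 0.07 (SE 0.378), with an interval of 0.600-fold to 1.85-fold. The direction of both genes hung on single libraries. Without L-Pha low 3 the log2 fold changes were -0.34 for Ccl3 and -0.32 for Ccl4, and without L-Pha high 1 they were -0.29 and -0.05.

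Ccl5, which encodes RANTES and whose transcript effector and memory T cells store (ENSMUSG00000035042, chromosome 11, 83525778 to 83530518), stood at 555, 563 and 165 CPM in L-Pha low against 363, 309 and 141 CPM in L-Pha high. Within each number the L-Pha high library was the lower, although the labels do not say that the numbers pair the libraries. L-Pha low 3 fell below L-Pha high 1 and 2, so the groups overlapped. The log2 fold change was -0.66 (SE 0.413, unadjusted p = 0.134, edgeR), or 1.58-fold lower in L-Pha high, with an interval from 0.342-fold to 1.17-fold. That value was -1.04 without L-Pha low 3, at an adjusted p of 0.216 (0.216 to 1.00 over the 18 alternatives), and -0.35 without L-Pha high 3. With both libraries numbered 3 left out it was -0.73.

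Ccl9, which encodes MIP-1 gamma (ENSMUSG00000019122, chromosome 11, 83572919 to 83578636), had 22.7, 19.8 and 5.97 CPM in L-Pha low against 34.9, 14.2 and 14.0 CPM in L-Pha high. L-Pha high 1 was the highest of the 6, and the other 2 libraries of its group lay within the range of L-Pha low. Its log2 difference of 0.38 (SE 0.463) became -0.20 with L-Pha high 1 left out and 0.00 without L-Pha low 3. Macrophage markers, summed over 14 genes, were also highest in L-Pha high 1, at 423 CPM, within 284 to 423 CPM in L-Pha high and 278 to 340 CPM in L-Pha low, and none of the 14 was at 0 in all libraries. Their part in the Ccl9 values was not tested. In contrast to Ccl9, the macrophage list was highest within L-Pha low in library 3, at 340 CPM.

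Xcl1, which encodes lymphotactin (ENSMUSG00000026573, chromosome 1, 164931644 to 164935527), had 50.8, 43.8 and 29.8 CPM in L-Pha low against 38.4, 20.2 and 42.3 CPM in L-Pha high. L-Pha low 3 was the lowest of its group, while L-Pha high 2 was the lowest of all 6 and L-Pha high 3 the highest of its group. Its log2 fold change was -0.31 (SE 0.314), with an interval of 0.508-fold to 1.29-fold, and it was -0.05 without L-Pha high 2 and -0.68 without both libraries numbered 3. NK cells can make Xcl1, Ccl3, Ccl4 and Ccl5 too. The 7 NK cell markers summed to 36.0 to 51.9 CPM in L-Pha high and 22.4 to 35.0 CPM in L-Pha low, so the groups did not overlap (exact permutation p = 0.1, two-sided, the smallest that 3 against 3 libraries allow, and 0.833 after adjustment over 10 marker lists). Most of that sum came from Eomes, which CD8 T cells also express, and from Fcer1g and Tyrobp. The defining NK receptor genes Ncr1 and Klrb1c had 0 to 2 and 0 to 5 counts per library, and Klra4 and Klra8 0 to 2 and 0 to 4. The part of NK cell RNA in the chemokine values was not tested.

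Ltb (ENSMUSG00000024399, chromosome 17, 35194439 to 35196320) was the tested member with the smallest unadjusted p, at 0.0670 by edgeR. It stood at 34.6, 48.6 and 21.3 CPM in L-Pha low against 22.6, 28.0 and 15.0 CPM in L-Pha high. Each L-Pha high library was below the L-Pha low library of the same number, though the numbers are not labelled as pairs. The groups overlapped, since L-Pha low 3 lay below L-Pha high 1 and 2. The log2 fold change was -0.67 (SE 0.336), or 1.59-fold lower in L-Pha high, with an interval of 0.381-fold to 1.04-fold, and it ranged from -0.92 without L-Pha low 3 to -0.36 without L-Pha low 2.

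Tnf and Tnfsf8 were too sparse for the count filter. Tnf (ENSMUSG00000024401, chromosome 17, 35199381 to 35202007) had 18, 4 and 4 counts in L-Pha low against 8, 9 and 9 in L-Pha high, which is 26 in each group. L-Pha low 1 held most of the L-Pha low counts, and the scaled ratio of low to high was 1.17 with all libraries (95% counting interval 0.650 to 2.09) and 0.558 without that library. Tnfsf8 (ENSMUSG00000028362, chromosome 4, 63831308 to 63861347) had 19, 11 and 8 counts in L-Pha low against 7, 3 and 2 in L-Pha high. It was the only member of the 10 whose groups did not overlap in CPM. Among the 2298 untested genes with at least 20 counts, 4.74% were likewise lower in every L-Pha high library. The summed 38 and 12 counts gave a ratio of low to high of 3.69 (counting interval 1.89 to 7.76), which stayed between 2.87 and 5.55 without any 1 library. In the fit with no count filter the value for Tnfsf8 was -1.84 on the log2 scale, at an adjusted p of 0.850 by edgeR. Counting intervals here and below pool the counts of each group and treat reads as independent. They leave out the variation between libraries and can therefore be too narrow.

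Csf1 (ENSMUSG00000014599, chromosome 3, 107741048 to 107760469) had 21.7, 14.6 and 4.85 CPM in L-Pha low against 22.9, 16.9 and 15.3 CPM in L-Pha high. The groups overlapped, and L-Pha low 3 with its 13 counts was the lowest. For Csf1 the log2 fold change was 0.42 (SE 0.424), with an interval of 0.710-fold to 2.51-fold, and it ranged from 0.02 without L-Pha low 3 to 0.91 without L-Pha low 1. Tgfb1 (ENSMUSG00000002603, chromosome 7, 25687002 to 25705077) was not tested, with 7, 8 and 1 counts in L-Pha low against 20, 15 and 4 in L-Pha high. L-Pha high 1 and 2 held the most counts, and both libraries numbered 3 the fewest of their group. The 39 and 16 summed counts gave a ratio of high to low of 2.09 (counting interval 1.14 to 4.01). As low to high this ratio was 0.478, and 0.358 to 0.650 without any 1 library, with the 0.650 without L-Pha low 3. Without both libraries numbered 3 it was 0.508. In the fit with no count filter the log2 fold change was 1.04 with an edgeR adjusted p of 0.850.

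**Figure D2:**
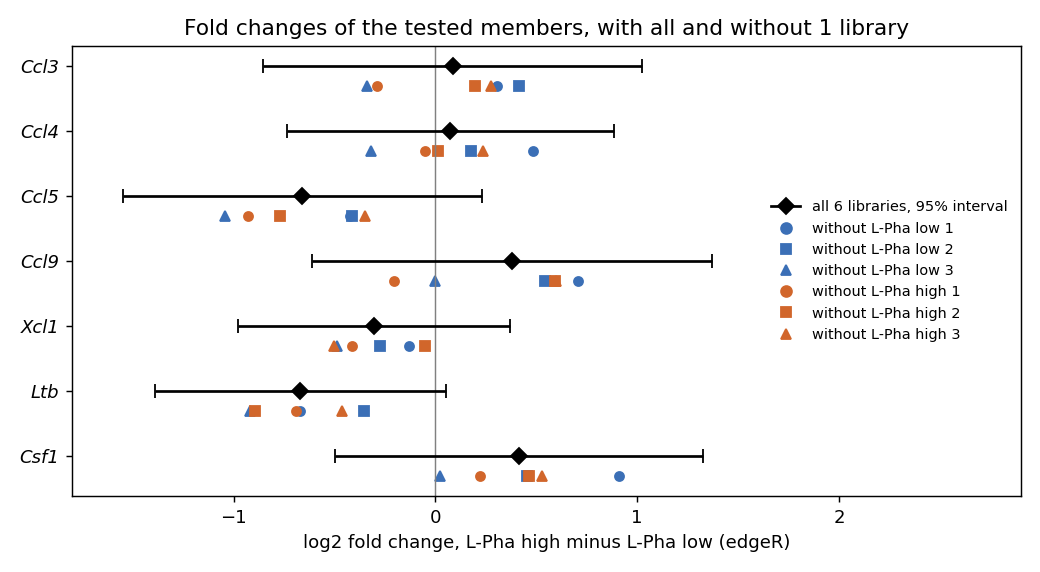
Log2 fold changes of the 7 tested genes by edgeR (L-Pha high minus L-Pha low) with all 6 libraries as black diamonds with 95% intervals, and without each library in turn as coloured symbols below them. Every interval includes 0, and the symbols of Ccl3, Ccl4 and Ccl9 fall on both sides of 0 while those of Ccl5, Xcl1 and Ltb stay below it and those of Csf1 above it.

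Most members were lowest in the libraries with the least T cell RNA. L-Pha low 3 was the lowest library of its group for 9 of the 10 members, with Tnf as the exception, and L-Pha high 3 was the lowest of its group for 8, with Xcl1 and Tnf as exceptions. The share of all genes with these lowest libraries was not counted, so the members cannot be set against it. In the libraries numbered 3 the mean CPM was 0.342 of that in the other 4 for Ccl5, 0.416 for Ccl3, 0.436 for Ccl9, 0.466 for Ccl4, 0.530 for Csf1 and 0.541 for Ltb. Of the untested members, Tgfb1 stood at 0.229 by the same measure, Tnfsf8 at 0.573 and Tnf at 0.745. Xcl1 stood at 0.942, with 0.631 within L-Pha low and 1.45 within L-Pha high. The T cell identity genes stood at 0.462, the macrophage markers at 1.13 and the melanoma markers at 1.42. Across the 6 libraries the log2 levels of the T cell identity list and of the members had a Pearson r of 0.92 for Ccl5, 0.90 for Ccl4, 0.86 for Ccl3, 0.81 for Ltb, 0.74 for Csf1, 0.71 for Ccl9 and 0.19 for Xcl1. These values describe 6 libraries that share their scaling.

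Each member was also set against the T cell identity counts of the same library, 1006 to 3211 per library. Over all 6 libraries the spread, as the highest over the lowest library, was smaller on this scale than in CPM for 6 of the 7 tested members, with Xcl1 as the exception. How many of all genes narrowed in this way was not counted. Without both libraries numbered 3 it was smaller for 3 (Ccl5, Xcl1 and Ltb) and larger for 4 (Ccl3, Ccl4, Ccl9 and Csf1), so the narrowing of those 4 rests on these libraries. For Ccl4 the spread was 4.09-fold in CPM and 1.66-fold per T cell identity count with all libraries, and 1.32-fold and 1.58-fold without the pair. For Ccl3 it was 5.08-fold and 2.50-fold with all libraries, and 1.76-fold and 2.11-fold without the pair. For Ccl5 it was 4.00-fold and 1.95-fold with all libraries, and 1.82-fold and 1.61-fold without the pair. Per 1000 T cell identity counts, Ltb had 34.0, 43.6 and 56.7 counts in L-Pha low against 29.8, 30.8 and 29.8 in L-Pha high. On this scale the Ltb groups did not overlap, as in 2.25% of all tested genes (8.41% in CPM), and Ltb was the single tested member to separate. Genes that do not follow the T cell identity list can gain spread by this division. The 2.25% is therefore not a background of genes like Ltb, and it can make the separation look rarer than it is. B cells express Ltb too. The 6 B cell markers summed to 21.7, 41.3 and 116 CPM in L-Pha low 1, 2 and 3, against 34.9, 48.8 and 15.3 CPM in L-Pha high, with overlapping groups. Within L-Pha low this was the order of Ltb per T cell identity count. In CPM, the scale of the B cell sums, Ltb was lowest in L-Pha low 3, at 21.3 against 34.6 and 48.6. Pax5 was at 0 counts in all libraries, while most of the sum came from Ighm, at a log2 fold change of -1.06 (SE 0.469, unadjusted p = 0.0397, edgeR adjusted p = 1.00), and Ms4a1. The part of B cell RNA in the Ltb values was not tested. Of the untested members, Tnfsf8 had 6.04, 3.43 and 7.95 in L-Pha low against 2.45, 0.992 and 1.32 in L-Pha high. Tgfb1 had 2.23, 2.49 and 0.994 in L-Pha low against 7.01, 4.96 and 2.65 in L-Pha high, so it separated in the upward direction. Both were apart between groups, as were 6.4% of the untested genes with at least 20 counts. Ccl5 was not, since the 477 of L-Pha high 1 lay above the 439 of L-Pha low 3, although the other 4 libraries had 545 and 505 in L-Pha low against 339 and 280 in L-Pha high. The list contains receptor and signalling genes whose own level can differ between groups, so a count per T cell identity count is not a count per cell. With the T cell identity level as a covariate in edgeR, 0 of the 7 tested members passed, and their adjusted p-values were 0.806 or above.

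**Figure D3:**
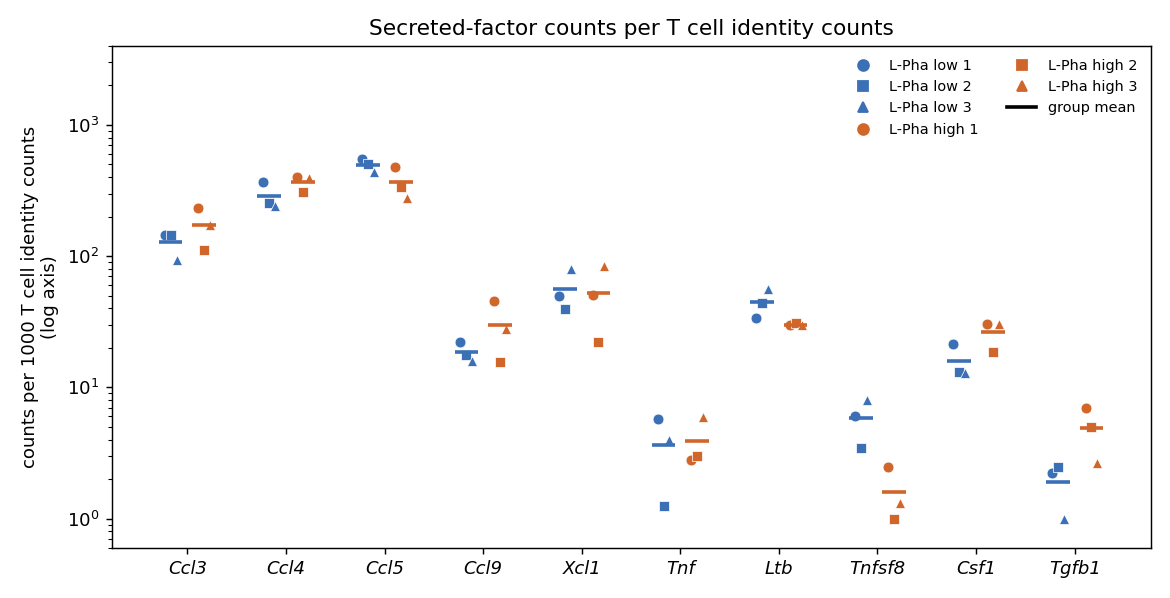
Counts of the 10 genes per 1000 summed counts of 16 T cell identity genes in the same library (log axis), with L-Pha low in blue, L-Pha high in orange, symbols by library number and bars at group means. The L-Pha high values of Ltb and Tnfsf8 lie below, and those of Tgfb1 above, all L-Pha low values, while the other 7 genes overlap.

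Counts of 2 members from the same library can be divided by each other, which removes the library size and any content of T cell RNA that both share. Ccl5 gave 1.49, 1.97 and 1.81 counts per Ccl4 count in L-Pha low 1, 2 and 3, against 1.18, 1.09 and 0.706 in L-Pha high. All 3 L-Pha high libraries were below all 3 L-Pha low libraries, by 1.80-fold on average (exact permutation p = 0.1, two-sided, the smallest possible, adjusted p = 0.42 over 21 ratios). Per Ccl3 count the Ccl5 counts were 3.76, 3.46 and 4.70 in L-Pha low against 2.04, 3.05 and 1.61 in L-Pha high. Per Csf1 count they were 25.6, 38.6 and 34.0 against 15.8, 18.3 and 9.20, and per Ccl9 count 24.5, 28.4 and 27.6 against 10.4, 21.8 and 10.1. Relative to Xcl1 and Ltb the groups overlapped. The Ccl5 to Ltb ratio was 16.0, 11.6 and 7.75 in L-Pha low against 16.0, 11.02 and 9.40 in L-Pha high.

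Of the 21 ratios among the 7 tested members 5 separated the groups, 4 of them with Ccl5 and the other being Ccl4 per Csf1, and all 21 had an adjusted exact permutation p of 0.42 or above. The ratios share genes and libraries and were examined after the values of the members were seen. Among all pairs of the 9154 tested genes with at least 10 counts in every library, 8.79% separated, and Ccl5 did so against 2.36% of the other genes. Those genes were not chosen for sharing T cell content with Ccl5, so differences in that content remain in their ratios. The 2.36% is therefore not a like background for the ratios among the members. A ratio shows unequal change of a pair of genes, not which of the pair changed. The log2 difference in Ccl5 per Ccl4 was -0.85, from -0.99 to -0.62 without any 1 library and -0.59 without both libraries numbered 3. The number of separated ratios was 5 to 11 without 1 library, since fewer libraries separate more easily.

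**Figure D4:**
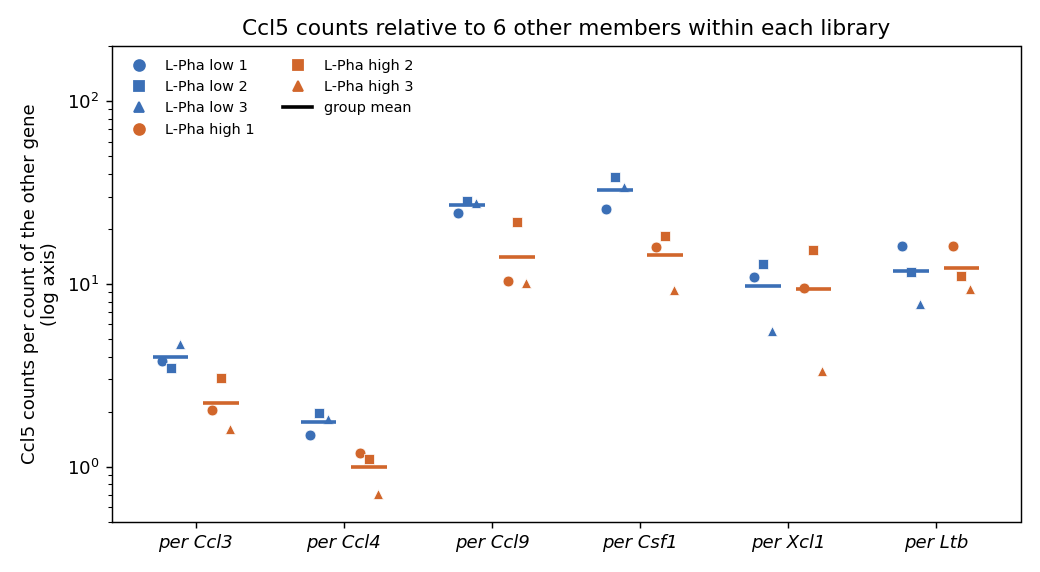
Ccl5 counts per count of 6 other members in the same library (log axis), with L-Pha low in blue, L-Pha high in orange, symbols by library number and bars at group means. The L-Pha high values lie below the L-Pha low values relative to Ccl3, Ccl4, Ccl9 and Csf1, and the groups overlap relative to Xcl1 and Ltb.

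The tested members differed in how closely their levels followed each other across the libraries. Ccl3, Ccl9 and Csf1 had a Pearson r of 0.92 to 0.96 with each other in log2 CPM over the 6 libraries, and Ccl4 one of 0.89 to 0.95 with these 3. Ltb had 0.89 with Ccl5 and 0.22 to 0.50 with Ccl3, Ccl4, Ccl9 and Csf1. Xcl1 had 0.18 to 0.45 with the other 6. These are descriptions of 6 libraries that differ in T cell content, with 375 to 1115 CPM summed over the T cell identity genes. The promoters of Ccl3, Ccl9 and Csf1, whose levels followed each other closely, of Ltb, whose level followed them less, and of Tnfsf8, whose groups did not overlap, are therefore shown side by side, as 250 bases before to 50 after the start from RefSeq on GRCm38.p6, 5′ to 3′ on the gene's strand. They lie at chr11:83649329-83649628 (minus strand), chr11:83578587-83578886 (minus), chr3:107760420-107760719 (minus), chr17:35194257-35194556 (plus) and chr4:63861235-63861534 (minus). Capitals mark matches to GGGNNNNNCC on either strand, a loose form of the site bound by NF-kB, a factor activated by receptor signalling.
Ccl3: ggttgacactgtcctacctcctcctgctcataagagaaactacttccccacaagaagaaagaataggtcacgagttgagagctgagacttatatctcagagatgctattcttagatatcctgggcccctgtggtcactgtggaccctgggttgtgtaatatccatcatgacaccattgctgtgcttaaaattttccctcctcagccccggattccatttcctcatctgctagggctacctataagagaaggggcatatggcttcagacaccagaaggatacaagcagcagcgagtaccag
Ccl9: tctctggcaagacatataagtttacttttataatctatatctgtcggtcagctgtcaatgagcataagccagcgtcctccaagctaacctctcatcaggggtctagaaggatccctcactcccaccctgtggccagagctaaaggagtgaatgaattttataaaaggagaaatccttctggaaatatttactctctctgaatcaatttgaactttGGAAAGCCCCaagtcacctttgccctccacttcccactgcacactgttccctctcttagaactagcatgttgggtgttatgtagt
Csf1: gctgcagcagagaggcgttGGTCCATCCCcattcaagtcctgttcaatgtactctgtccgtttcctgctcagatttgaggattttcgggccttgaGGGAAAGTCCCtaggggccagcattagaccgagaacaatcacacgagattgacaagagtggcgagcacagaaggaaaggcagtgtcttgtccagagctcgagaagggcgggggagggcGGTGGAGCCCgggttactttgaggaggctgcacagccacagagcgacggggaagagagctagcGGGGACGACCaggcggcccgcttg
Ltb: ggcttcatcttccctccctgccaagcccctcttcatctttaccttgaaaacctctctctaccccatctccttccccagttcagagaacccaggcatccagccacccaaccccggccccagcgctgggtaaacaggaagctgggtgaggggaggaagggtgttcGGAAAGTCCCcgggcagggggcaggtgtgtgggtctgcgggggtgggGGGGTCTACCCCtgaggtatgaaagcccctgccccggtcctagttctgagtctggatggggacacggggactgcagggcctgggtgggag
Tnfsf8: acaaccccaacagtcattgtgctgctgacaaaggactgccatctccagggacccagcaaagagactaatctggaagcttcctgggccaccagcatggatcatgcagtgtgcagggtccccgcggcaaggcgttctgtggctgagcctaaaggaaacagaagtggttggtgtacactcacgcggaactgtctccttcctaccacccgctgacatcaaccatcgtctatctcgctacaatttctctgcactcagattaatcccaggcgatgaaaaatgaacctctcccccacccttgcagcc

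A promoter was found for 8 of the 10 members, and those of Ccl4 and Ccl5 were not analysed here. The NF-kB letters matched in 5 of the 8 (Ccl9, Csf1, Ltb, Tnf and Tgfb1), and in 50.8% of 32851 promoters of this length. Ltb had 4 matches, of which 3 overlap one another from 40 bases before the start and 1 begins 87 bases before it. Csf1 had 5, with an overlapping pair from 155 bases before the start, and Ccl9 had 1, beginning 35 bases before it. Ccl3 and Tnfsf8 had 0 in this window. TATAAA, the core of the TATA box, was found on either strand in Ccl9 and Tnf, 2 of the 8, and in 13.6% of all promoters, and no NF-kB match overlapped it in the members. Ccl3 with 0 matches and Csf1 with 5 had a Pearson r of 0.92 in their levels over the 6 libraries. A link between matches and levels was not tested.

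Genes around the members were listed in 8 groups, chosen with earlier results of these data known. In each of them 0 genes passed by edgeR and 0 by DESeq2. Of all genes tested, 3.78% had an unadjusted edgeR p under 0.05. Of the receptors for these factors 13 were listed and 8 tested, of which 1 had an unadjusted edgeR p under 0.05. The median log2 fold change was -0.05, against -0.01 over all genes. Tgfbr2, a subunit of the Tgfb1 receptor, had -0.72 (SE 0.356) and Tgfbr1 -0.41 (SE 0.465), with overlapping groups. Tnfrsf8, the receptor of Tnfsf8, had 0 to 6 counts. Xcr1, the receptor of Xcl1, had 0 counts in each L-Pha low library and 1, 2 and 4 in L-Pha high. Both were too sparse for the test, and a count of 0 allows up to 3.

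Among other T cell cytokines 7 of 18 matched genes were tested and 0 passed, with a median of -0.17. At an unadjusted edgeR p under 0.05, 2 were higher (Areg and Penk) and 2 lower (Il16 and Lta), where 3.78% of all genes had such a p. Since this list was chosen with earlier results known, these numbers are not support for a change of the list. Areg, an epidermal growth factor receptor ligand, had 7, 3 and 2 counts in L-Pha low against 50, 13 and 11 in L-Pha high (log2 fold change 2.33, SE 0.666, edgeR adjusted p = 0.663). Penk, the enkephalin precursor, stood at 29.4, 28.5 and 6.34 CPM against 76.2, 62.1 and 33.6 CPM (log2 fold change 1.41, SE 0.444), and for both the groups did not overlap, with all L-Pha high libraries above, as in 4.23% of all tested genes. In the other direction Il16, a leukocyte attractant, had 31.4, 37.9 and 20.1 CPM against 14.9, 22.0 and 13.0 CPM (log2 fold change -0.84, SE 0.321), with L-Pha low 3 inside the range of L-Pha high. Ifng, the main effector cytokine of CD8 T cells and named after its values were seen, had a log2 fold change of 0.24 (SE 0.386).

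Of the other TNF family ligands 5 of 15 were tested and 0 passed, with a median of -0.03 and with 1 lower at an unadjusted p under 0.05. That gene was Lta, which is also in the list of other T cell cytokines and was already counted there. Lta, the partner of Ltb in the membrane lymphotoxin trimer, had 31, 16 and 10 counts in L-Pha low against 17, 5 and 4 in L-Pha high, a difference of -1.35 on the log2 scale (SE 0.578, unadjusted p = 0.0347, edgeR adjusted p = 1.00). The groups overlapped through L-Pha high 1, and the point value lay on the same side as that of Ltb. Fasl, a death receptor ligand, had 0.20 (SE 0.420) and Tnfsf4 (OX40 ligand) 1.09 (SE 0.738).

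Other chemokines held no call either. Of 15 further C and CC chemokines 8 were tested and 0 passed, with 5 above 0 and 3 below, a median of 0.31 and 1 higher at an unadjusted p under 0.05. Ccl12 and Ccl6, both known from macrophages, were at 1.16 (SE 0.435) and 0.63 (SE 0.337) on the log2 scale, and Ccl8 at -0.58 (SE 0.388). Their groups overlapped, and L-Pha low 3 was the highest of its group in each of these 3 genes, where it was the lowest for the member chemokines. Of 15 CXC and CX3C chemokines 5 were tested and 0 passed, with a median of 0.00 and 0 at an unadjusted p under 0.05. Cxcl12, the ligand of Cxcr4, had 0.72 (SE 0.690) and Pf4, a platelet and macrophage chemokine, 0.29 (SE 0.511). Cxcl2 was high in both libraries numbered 1, at 91.6 CPM in L-Pha low 1 and 61.8 CPM in L-Pha high 1, against 5.56 to 15.7 CPM in the other 4. The 10 neutrophil markers summed to 38.2 CPM in L-Pha low 1 and 2.71 to 14.1 CPM in the other 5, with Ly6g and Ngp at 0 in all libraries, and their part in the Cxcl2 values was not tested.

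Regulators of these factors likewise held no call. The NF-kB pathway list had 19 tested genes, of which 0 passed and 1 was lower at an unadjusted p under 0.05, and its median was -0.10. Bcl3, an atypical inhibitor that acts with NF-kB subunits in the nucleus, had the smallest p, at 18.8, 15.6 and 19.4 CPM in L-Pha low against 6.39, 9.94 and 9.33 CPM in L-Pha high. These groups were apart, as were those of 4.18% of all tested genes in the downward direction, at -1.07 on the log2 scale (SE 0.326, adjusted p = 0.735 by edgeR). Ikbkg, the regulatory subunit of the kinase that releases NF-kB, had -0.79 (SE 0.488) with overlapping groups. Traf3, an adaptor that restrains the alternative NF-kB pathway, had 0.46 (SE 0.293) with groups apart in the upward direction, as in 4.23% of all tested genes. Of 10 genes for Tnf shedding and cytokine mRNA decay 9 were tested and 0 passed (median -0.24), with 1 lower at an unadjusted p under 0.05. Zfp36l2, which promotes the decay of mRNAs with AU-rich elements, had -0.78 (SE 0.321), the sheddase gene Adam17 0.52 (SE 0.269) and Zc3h12a, an RNase that degrades cytokine mRNAs, 0.70 (SE 0.451). Of 17 genes for activation of and response to transforming growth factor beta 10 were tested and 0 passed (median -0.18), with 0 at an unadjusted p under 0.05. Smad3, a signal transducer of that pathway, had -0.90 (SE 0.431) with groups that did not overlap, as in 4.18% of all tested genes in the downward direction. Itgav, an integrin subunit that activates latent Tgfb1, had 0.42 (SE 0.303) with groups apart in the upward direction, as in 4.23% of all tested genes. Furin, a protease that cleaves the Tgfb1 precursor, had -0.33 (SE 0.256).

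The genes whose levels tracked a member most closely over the 6 libraries were named by rule from 4537 genes of at least 20 CPM. They were Trpc4ap, B4galt5 and Gzmb for Ccl3 (Pearson r 0.97 to 0.99), Gsk3a, Dhx30 and Dok2 for Ccl4 (1.00), Rps16-ps2, Rac2 and Adgre5 for Ccl5 (0.99), Nr4a1, Rbbp4 and Etfa for Xcl1 (0.98 to 0.99) and H2afy, Hcst and Rps15a for Ltb (0.98 to 1.00). Ccl9 and Csf1 were below the level of 20 CPM at which the rule applies. These values are among the highest 3 of 4537 over 6 libraries that share their scaling, and Rps16-ps2 and Rps15a can share reads with copies of their families.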

How the data were processed

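Polyadenylated RNA was read from its 3' end (QuantSeq) in 3 L-Pha low and 3 L-Pha high libraries. The deposited counts are whole reads per gene, which per the file headers the authors obtained by featureCounts 1.5.0-p3 from sense reads on Ensembl 78 models of GRCm38, counting multi-mapping and overlapping reads each time. The submitters' processing notes list, with no roles, the build hg19 and HISAT2 2.1.0, Subread 1.5.0, cutadapt 1.7, FastQC 0.11.5, bcl2fastq 2.17.1.14 and limma. How the authors made the deposited log2 values of 14293 genes is not given in the sources used here, and these serve as an alternative. Whether replicates came from separate pools is not labelled. The p-values set the difference between groups against the variation between these libraries, which may be technical.

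Symbols were matched for 97.3% of gene identifiers through GENCODE M21. Counts were TMM-scaled and tested with edgeR 4.0.16 in R 4.3.3 (filterByExpr, robust quasi-likelihood F test, group only, two-sided, Benjamini-Hochberg over 11183 genes, threshold 0.05). The SE derives from the F statistic, and 95% intervals of summed counts are exact binomial (Clopper-Pearson). On counts simulated for this comparison (10840 genes), edgeR recovered 29.3% of 99 genes changed 2-fold and 85.9% of 99 changed 4-fold, with 3 false calls. The changed genes were drawn above a minimum level, and each gene was simulated on its own. No difference in T cell content between libraries was simulated, so these rates are not those of the members. Ratios and marker sums were tested by exact permutation (scipy 1.17.1). No gene model with a count overlapped a member on its strand, and the closest match of at least 50 bases in the last 500 of a member's transcripts was 94.6% identical, between Ccl9 and Slfn2 (blastn 2.17.0). Alternatives were DESeq2 1.42.0, its size factors, limma-voom (limma 3.58.1), library totals alone, omission of Gm42418, 2 other filters, thinning, a replicate block, a T cell covariate and leaving out libraries.

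The members, 8 pathway lists and 10 marker lists (216 symbols, 215 matched, Flt3l not) were chosen with earlier results of these data known. The 3 genes of smallest p in each pathway list, and the genes most like each tested member of at least 20 CPM, were named by rule, and Ifng was added after its values were seen. A gene that this rule names in the receptor list is not reported here.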

Additional observations from a re-analysis of the deposited data

How the results depend on the processing

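In all 18 alternatives 0 members passed the threshold, of which 11 kept all libraries and changed the test, values, scaling, filter, depth or covariates and 7 left out libraries. Over all genes the count of higher and lower genes was 0 and 1 by edgeR, 8 and 22 with DESeq2, 20 and 27 with no count filter, 20 and 23 with the replicate block, 21 and 21 with the T cell covariate, and 0 and 0 with library totals alone, limma-voom or the deposited log2 table. Without 1 library it was 0 to 1 higher and 0 to 7 lower, with the 1 and 7 without L-Pha low 3, and 0 and 0 without both libraries numbered 3. Leaving out that pair was chosen after seeing the data. Without single libraries or that pair, the log2 fold change ran from -0.34 to 0.42 for Ccl3, with -0.29 without L-Pha high 1 and -0.15 without both libraries numbered 3. For Ccl4 it ran from -0.32 to 0.48, with -0.05 and -0.16 in the same 2 cases, and for Ccl9 from -0.20 to 0.71, with 0.00 (-0.0016) without L-Pha low 3. The cause was not tested. The other 4 tested members kept their sign in all alternatives. Their ranges were -1.04 to -0.35 for Ccl5, -0.92 to -0.36 for Ltb, -0.68 to -0.05 for Xcl1 and 0.02 to 0.91 for Csf1. Library totals alone moved the median of all genes to 0.10, with Ccl3 at 0.24 and Ccl4 at 0.20. The 5 separated ratios became 5 to 11 without 1 library, and 9 without both libraries numbered 3. The 6 tested members with a smaller spread per T cell identity count became 3 without that pair. Same-numbered libraries had a correlation of deviations from their group means of 0.37, 0.08 and 0.47, against -0.44 to 0.13 for libraries of different number. Deviations within a group cancel, so these values are not independent. The main test does not use the numbers. With the replicate block 925 genes had an unadjusted edgeR p under 0.05, against 423 in the main test. The smallest adjusted p of a member with the block was 0.286, for Ccl5. With 50 to 55 counts over all libraries, Tnf, Tnfsf8 and Tgfb1 have counting intervals several-fold wide.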
